A study of Mus musculus with 2 samples.

Results

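The mir-34 and mir-449 family of the mouse comprises 6 microRNA (miRNA) genes, Mir34a, Mir34b, Mir34c, Mir449a, Mir449b and Mir449c, and all 6 were among the 2202 miRNA genes counted here. Members were taken by symbol from a list of names that sets no threshold on a measured value. Small RNA was sequenced from gastrocnemius, a calf muscle, of female B6CASTF1/J mice at an age of 4 days. These animals are hybrids of C57BL/6J and CAST/EiJ parents, and the labels name no treatment and no engineered allele. The series holds 1 group of 2 libraries from separately numbered females, so no condition could be compared with another. The labels give both samples the same donor entry, so that the libraries stand for separate animals rests on the numbering of the females alone. Whether reads that carry CAST/EiJ alleles were lost in alignment was not tested.

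miRNAs are short RNAs that guide repression of messenger RNAs, mainly through pairing of the seed, bases 2 to 8 of the mature strand, which is cut from either arm (5p or 3p) of a hairpin precursor. Mir34a and the Mir34b-Mir34c pair are known as direct transcriptional targets of the tumour suppressor p53, and their miRNAs restrain the cell cycle and survival. The Mir449 genes lie inside Cdc20b and are known for high levels in multiciliated epithelia, where miR-449 and miR-34b/c act together in the formation of motile cilia. Neither branch is a marker of skeletal muscle.

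The mature sequences are shown because the 5p seed is what makes the branches one family. They were taken from RefSeq on GRCm38.p6, where 5 of the 6 members matched an entry. No 5p strand was matched for Mir34c and no strand for Mir449b, and neither was looked for elsewhere. A strand missing below is therefore not shown to lack the seed. Sequences run 5′ to 3′, with the seed in capitals.
mmu-miR-34a-5p: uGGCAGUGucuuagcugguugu
mmu-miR-34b-5p: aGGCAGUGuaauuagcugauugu
mmu-miR-449a-5p: uGGCAGUGuauuguuagcuggu
mmu-miR-449c-5p: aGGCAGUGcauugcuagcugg
All 4 listed 5p strands carry the seed GGCAGUG, and no other entry among the 1738 mature miRNAs of the table does. Compared position by position from the 5′ end with no gaps, miR-34a-5p and miR-449a-5p were identical over their first 9 bases and at 15 of 22 positions. The miR-449a-5p and miR-449c-5p pair was identical at 18 of 21 positions, and miR-34a-5p and miR-34b-5p at 11 of 22. Without gaps, a strand with an inserted base scores low beyond it, so these counts do not rank the pairs.

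The 3p strands are shown because, unlike the 5p strands, they do not form 1 seed group.
mmu-miR-34a-3p: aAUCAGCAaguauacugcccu
mmu-miR-34b-3p: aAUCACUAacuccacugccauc
mmu-miR-34c-3p: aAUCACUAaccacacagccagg
mmu-miR-449a-3p: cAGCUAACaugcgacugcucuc
mmu-miR-449c-3p: cAGUUGCUagcugcacuacccu
The seed AUCACUA was shared by miR-34b-3p and miR-34c-3p alone among the table's entries, and the other 3 listed strands each had a seed found in no other entry. The deposited counts are per gene and do not separate the arms, so a gene's level below is the sum of whatever its hairpin gave.

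The hairpins of Mir34a and Mir449a, the best-counted gene of each branch, are shown with their annotated 5p and 3p strands in capitals.
Mir34a: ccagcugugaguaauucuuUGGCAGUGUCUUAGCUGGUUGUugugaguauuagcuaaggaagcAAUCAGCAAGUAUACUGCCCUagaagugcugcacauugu
Mir449a: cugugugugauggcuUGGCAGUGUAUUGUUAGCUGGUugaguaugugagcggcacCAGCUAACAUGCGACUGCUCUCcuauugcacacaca
The letters GGCAGUG occurred on the own strand of all 6 member hairpins. They occurred in 35 of all 2202 hairpins (1.59%), or in 82 (3.72%) when both strands were searched. Of the 29 other genes with the letters on their own strand, only Mirlet7b and Mir7007 had a level of 2 counts per 1e6 gene counts (CPM) or above in each library, and neither has the letters as the seed of a listed mature strand. Both were picked out for naming with their values in view.

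In mm10, Mir34a (ENSMUSG00000065493.1) lies at chr4:150068454-150068555 on the plus strand. The last 17 bases of its hairpin overlap an exon of Gm37795, an unclassified transcript on the same strand. Mir34c (ENSMUSG00000065587.1) at chr9:51103034-51103110 and Mir34b (ENSMUSG00000065492.1) at chr9:51103562-51103645 lie on the minus strand, 451 bases apart. Both are within intron 1 of 1 annotated transcript of Btg4, which runs on the opposite strand. Mir449c (ENSMUSG00000076146.1) at chr13:113035983-113036091, Mir449b (ENSMUSG00000078027.1) at chr13:113037419-113037498 and Mir449a (ENSMUSG00000065575.1) at chr13:113037534-113037624 lie on the plus strand. These 3 hairpins are in intron 2 of Cdc20b on its own strand, with 1327 bases between Mir449c and Mir449b and 35 between Mir449b and Mir449a.

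No member had a near-identical copy among the counted genes. The longest stretch a member hairpin shared with any of the other 2201, on either strand, ranged from 11 bases for Mir34b and Mir34c to 14 for Mir449a, which shared them with Mir679. Within the family the longest shared stretch was 11 bases. Matches outside the counted genes were not searched. No member overlaps another counted gene.

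Own-strand gene counts came to 5569392 in library 1 and 4336759 in library 2. Another 36.9% and 37.6% of all reads stood in the multimapping row, outside every gene. Levels are CPM of own-strand gene counts, and every interval is an exact 95% interval for counting error alone. The tissue label was checked against 9 skeletal muscle genes. Of these 8 were detected, meaning that each library had at least 2 CPM, against 15.2% of all 2202 genes. Mir206 led them at 124329 ± 7080 CPM (SD, n = 2), and Mir499, Mir208b, Mir486 and Mir133b had means between 82.9 and 1169 CPM. Mir1a-2, Mir133a-1 and Mir1a-1 had means of only 17.0, 5.24 and 2.20 CPM, and Mir133a-2 was not detected. Reads that fit more than 1 copy of a gene stand in the multimapping row, so such copies can be undercounted. In a bulk tissue, more cells of a type and more RNA per cell cannot be told apart, which holds for every level below.

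The family was a minor part of this muscle's miRNA. It held 1241 counts in library 1, or 0.0223% of gene counts (interval 0.0211 to 0.0236), and 1236 counts in library 2, or 0.0285% (0.0269 to 0.0301). The mean share was 0.0254% ± 0.0044 (SD, n = 2). With the multimapping reads added to the denominator it was 0.0148%, and on that scale Mir34a, Mir34c and Mir34b had mean levels of 72.3, 47.7 and 1.71 per 1e6 reads. Of the 6 members, 4 were detected, against 15.2% of all 2202 genes and 28% of the 1174 genes named Mir or Mirlet. The family therefore had reads from 3 of 3 mir-34 genes but from only 1 of 3 mir-449 genes.

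Mir34a, the p53 target that is transcribed on its own, had the highest level of the family. It had 651 counts in library 1 (117 CPM, interval 108 to 126) and 567 in library 2 (131 CPM, 120 to 142), a mean of 124 ± 9.80 CPM (SD, n = 2). That placed it at rank 167 of the 335 detected genes, whose median level was 123 CPM. The family's leading gene was thus in the middle of the detected genes.

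Mir34c, the downstream hairpin of the chromosome 9 pair, had 442 counts in library 1 (79.4 CPM, 72.1 to 87.1) and 365 in library 2 (84.2 CPM, 75.8 to 93.3). Its mean was 81.8 ± 3.40 CPM (SD, n = 2), at rank 190. Mir34b, the upstream hairpin of the pair, had 16 counts in library 1 (2.87 CPM, 1.64 to 4.67) and 13 in library 2 (3.00 CPM, 1.60 to 5.13). Mir34b was at rank 326 of 335, and its intervals reach below the detection limit of 2 CPM in both libraries. The counts of Mir34c were 27.6 times those of Mir34b in library 1 (16.8 to 48.8) and 28.1 times in library 2 (16.2 to 53.2), a mean ratio of 27.9 ± 0.320 (SD, n = 2). Hairpins 451 bases apart on 1 strand thus differed by more than an order of magnitude in each library. The intervals, which rest on 16 and 13 counts of Mir34b, are far wider than the SD of the 2 ratios. The closeness of these ratios is therefore no measure of precision.

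Mir449a, the last hairpin of the Cdc20b intron, was the only mir-449 gene with an own-strand read. It had 132 counts in library 1 (23.7 CPM, 19.8 to 28.1) and 291 in library 2 (67.1 CPM, 59.6 to 75.3). The mean of 45.4 ± 30.7 CPM (SD, n = 2) describes neither library. Mir449b and Mir449c had 0 counts in both libraries, for which the limits were 0.539 CPM (library 1) and 0.692 CPM (library 2). The counts of Mir449a were 44 times the limit of 3 counts in library 1 and 97 times that limit in library 2. These values leave out the counting error of Mir449a. Mir449b lies only 35 bases upstream of Mir449a and shares its host intron.

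**Figure D1:**
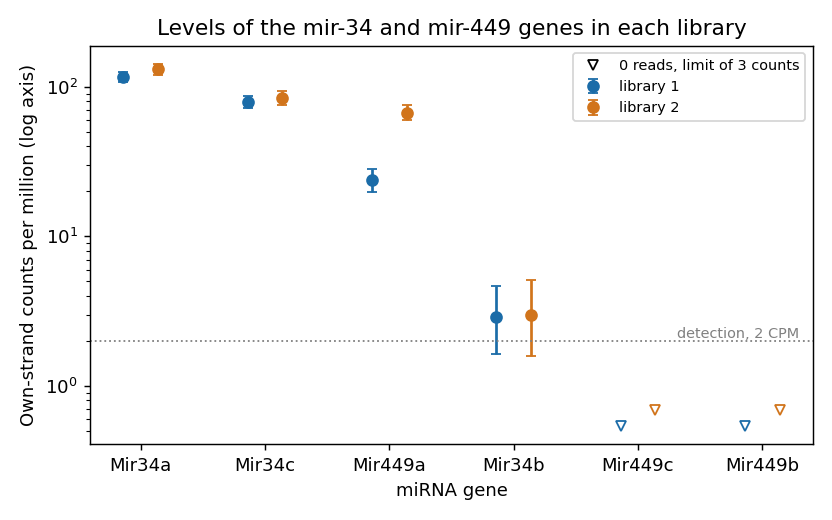
CPM of each member gene (log axis) in library 1 and library 2, with bars for exact 95% counting intervals. Open triangles mark the limit of 3 counts for genes with 0 reads. Mir34a and Mir34c lie between 79.4 and 131 CPM, Mir449a is at 23.7 and 67.1 CPM, and Mir34b is just above the detection limit of 2 CPM.

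**Figure D2:**
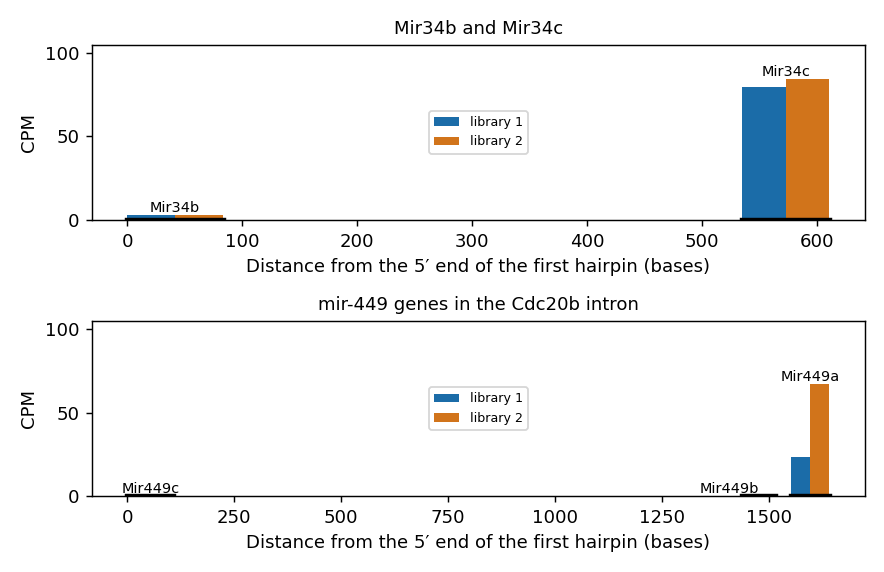
CPM in each library (bars, starting at 0) drawn over the hairpins of the Mir34b-Mir34c pair (top) and of the 3 mir-449 genes (bottom), against distance in bases from the 5′ end of the first hairpin in the direction of transcription. In each cluster the last hairpin, Mir34c or Mir449a, holds nearly all or all of the reads.

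From highest to lowest the order was Mir34a, Mir34c, Mir449a and Mir34b in each library, and it was the same for CPM per hairpin base. The values of neighbours in this order did not overlap across the libraries. Mir34a and Mir34c had a count ratio of 1.47 (1.30 to 1.67) in library 1 and 1.55 (1.36 to 1.78) in library 2. Per hairpin base, with 102 bases for Mir34a and 77 for Mir34c, that ratio was 1.11 (0.984 to 1.26) in library 1, an interval that includes equality, and 1.17 (1.03 to 1.34) in library 2. Mir34c exceeded Mir449a 3.35-fold in counts in library 1 (2.75 to 4.10) and only 1.25-fold in library 2 (1.07 to 1.47). With 2 libraries no test over animals was made of this order.

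The libraries differed in Mir449a, while no mir-34 gene passed the test. Each gene's counts were compared by an exact two-sided binomial test given the scaled library totals, with Benjamini-Hochberg adjustment over all 335 detected genes and a threshold of 0.05. The test compares these 2 libraries and no conditions. It called 55.5% of the detected genes, 28.7% as higher in library 2 and 26.9% as lower, and 1 of the 4 detected members. Mir449a was higher in library 2 by 2.79-fold, a log2 ratio of 1.48 (1.18 to 1.79), with an adjusted p of 1.08e-23 in the exact counting test.

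Mir34a had a log2 ratio of 0.14 (-0.03 to 0.30) and an adjusted p of 0.148 in the same exact test. Mir34c had a log2 ratio of 0.06 (-0.14 to 0.27) with an adjusted p of 0.661, and for Mir34b the ratio was 0.04 (-1.14 to 1.19) with an adjusted p of 1, both in the exact test. The interval of Mir34b allows a 2-fold difference in either direction, whereas those of Mir34a and Mir34c do not. The median log2 ratio was 0.10 over the 4 detected members and 0.03 over all detected genes.

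Mir449a was among 20 detected genes (5.97%) that were more than 2-fold higher in library 2, at rank 10 by ratio, and no detected gene was more than 2-fold lower. Within the family its share of counts was 10.6% in library 1 (8.98 to 12.5) and 23.5% in library 2 (21.2 to 26.0). The share of Mir34a went from 52.5% (49.6 to 55.3) to 45.9% (43.1 to 48.7). The 3 mir-34 genes together had 199 CPM in library 1 and 218 CPM in library 2, a log2 ratio of 0.11 (-0.02 to 0.23), so the family's own log2 ratio of 0.33 (0.22 to 0.45) came mostly from Mir449a.

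**Figure D3:**
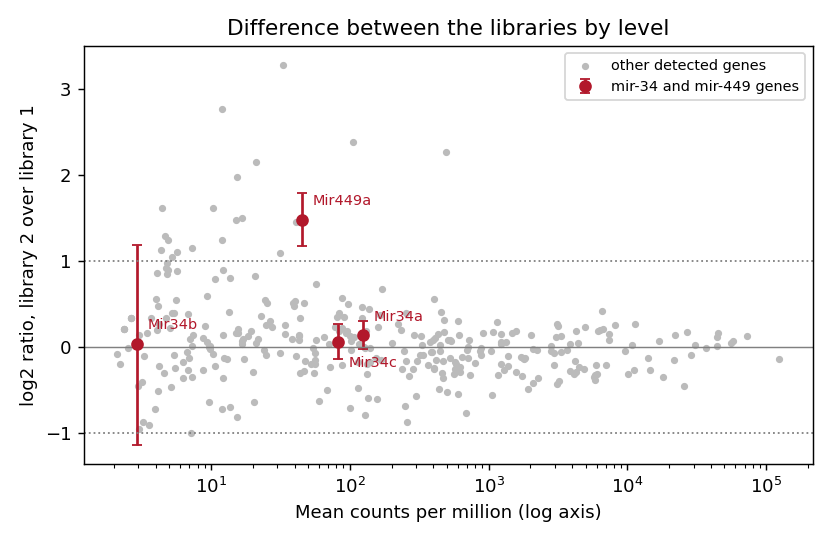
log2 ratio of library 2 over library 1 against mean CPM (log axis) for the 335 detected genes, with the 4 detected members in red and their exact 95% counting intervals. Dotted lines mark 2-fold. Mir449a lies at 1.48 above the upper line, while Mir34a, Mir34c and Mir34b lie between 0.04 and 0.14.

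The Mir449 genes are known to be high in multiciliated epithelia, and a list of 10 epithelial genes of several kinds was set beside them. Of these 10 genes 7 were detected, and 5 of the 7 were called higher in library 2. Of all detected genes 28.7% were. The list was chosen with earlier results of these data known, so this comparison is not independent of them. The epithelial list held the Mir200 genes (Mir200a, Mir200b, Mir200c, Mir141 and Mir429), which maintain the epithelial state, the epidermal genes Mir203 and Mir205, and the sensory epithelium cluster Mir96, Mir182 and Mir183. Of the 7 detected genes none was called lower and 2, Mir183 and Mir182, were not called. Among the 3 undetected genes, Mir96 had 6 counts in library 1 and 2 in library 2, while Mir200a had 11 and 22 and Mir141 had 7 and 11. The summed level of all 10 was 323 CPM in library 1 and 438 CPM in library 2, and none of the 10 was at 0 in both. The median log2 ratio of the 7 was 0.55, beside 0.03 over all detected genes. Their part in the difference of Mir449a was not tested.

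The highest of the list was Mir203, with 202 CPM in library 1 and 246 CPM in library 2 and a log2 ratio of 0.26 (0.14 to 0.39). Mir183 had 32.0 CPM in library 1 and 36.0 CPM in library 2, and its log2 ratio of 0.15 (-0.17 to 0.47) was not called. Mir205 had 19.9 CPM in library 1 and 43.1 CPM in library 2, with a log2 ratio of 1.09 (0.74 to 1.44). Mir429, named after its values were seen, had 44 counts in library 1 and 97 in library 2, and its log2 ratio of 1.48 (0.95 to 2.03) equalled that of Mir449a. Of the epithelial genes only Mir203 was higher in level than every mir-34 and mir-449 gene.

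Other marker lists moved both ways. Of 10 neural genes 3 were detected, with a summed level of 383 CPM in library 1 and 520 CPM in library 2, and 2 were called higher. Of the defining genes of neurons, Mir124a-2, Mir124a-3 and Mir9-2 were at 0 in both libraries. Their sister copies Mir9-3, Mir9-1 and Mir124a-1 had no count in library 1 and 10, 3 and 1 counts in library 2. Reads that fit more than 1 copy stand in the multimapping row, so a 0 or a low count at 1 copy does not show absence. The pancreas and endocrine genes Mir375 and Mir7b had a summed level of 17.2 CPM in library 1 against 37.1 CPM in library 2, with Mir7b called higher and Mir375 not called. Of 5 leukocyte genes, all detected, 4 were called lower in library 2, with sums of 1013 and 652 CPM. Of 9 skeletal muscle genes, 8 of them detected, 3 were called lower and 1 higher. Over all detected genes 28.7% were called higher and 26.9% lower. The endothelial gene Mir126a was called lower, while Mir126b was not detected. The median log2 ratio of the detected neural genes was 1.61, the value of Mir219a-2 with 12 and 29 counts. Mir137 had 2.38, while Mir338, the highest neural gene in level, had -0.10 and was not called. For the pancreas and endocrine list the median was 1.46, between 0.16 for Mir375 and 2.76 for Mir7b. With 3 and 2 detected genes, these medians are not ranked against the 0.55 of the epithelial list. The median was -0.63 in the leukocyte list, -0.45 for the endothelium and -0.03 in the skeletal muscle list. The part of these cell types in the difference of Mir449a was not tested.

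Other miRNA genes linked to p53 showed no shared direction. The list held 13 genes, among them Mir192, Mir194-1, Mir194-2 and Mir215, described as p53 targets, and Mir143, Mir145a, Mir15a, Mir16-1, Mir16-2 and Mir107, whose processing or transcription has been linked to p53. Of 9 detected genes 3 were called higher in library 2, 5 lower and 1 was not called, with a median log2 ratio of -0.12. The shares over all detected genes were 28.7% higher and 26.9% lower. This list too was chosen with earlier results of these data known. Mir194-1 and Mir145b were at 0 in both libraries, but Mir194-1 has 22 bases in common with Mir194-2, so its 0 is uncertain.

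The level of the p53-linked list rested on Mir143, a smooth muscle gene, at 26778 ± 2565 CPM (SD, n = 2) with a log2 ratio of 0.17 (0.16 to 0.18). Mir15a, a gene that restrains the cell cycle, had 708 CPM in library 1 and 494 CPM in library 2, a log2 ratio of -0.54 (-0.62 to -0.46). Mir145a, the cluster neighbour of Mir143, had 545 and 508 CPM in these libraries and a log2 ratio of -0.12 (-0.20 to -0.04). Mir34a was lower in level than 5 of the 13 genes. Among the others, Mir107, Mir16-1, Mir16-2 and Mir194-2 each have 22 bases or more in common with a further counted gene, so their counts and calls are uncertain.

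**Figure D4:**
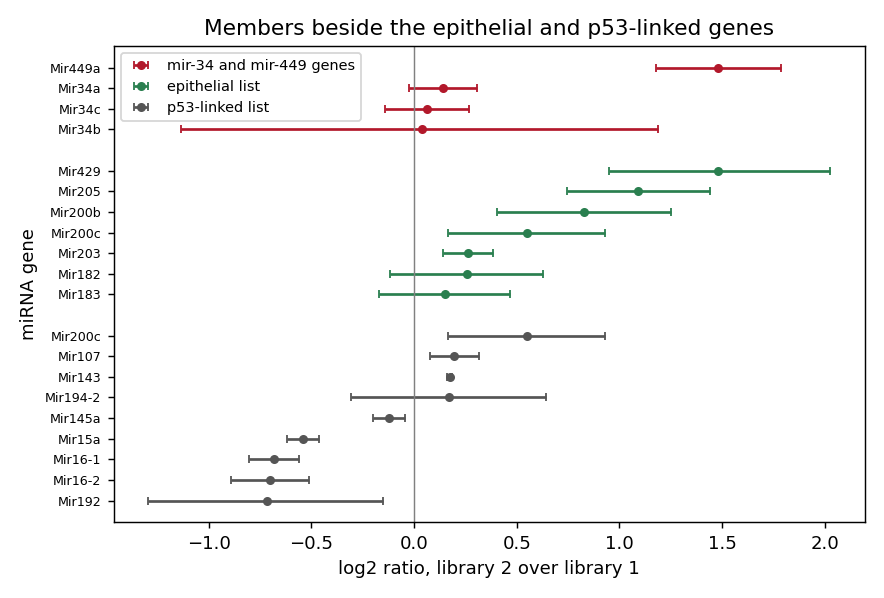
log2 ratio of library 2 over library 1, with exact 95% counting intervals, for the detected members (red), the detected epithelial genes (green) and the detected p53-linked genes (grey). All 7 epithelial genes and all 4 members have values above 0, beside a median of 0.03 over all detected genes. Of these members and epithelial genes, Mir34a, Mir34c, Mir34b, Mir183 and Mir182 have intervals that include 0. Mir449a and Mir429 are at 1.48, while the p53-linked genes lie on both sides of 0. Mir200c belongs to both lists, and with scaling factors estimated on all counted genes the values of Mir34c and Mir34b fall below 0.

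Genes most like each member were found by the distance of log2(CPM + 0.5) over the 2 libraries, which is a likeness of 2 values only. Nearest to Mir449a was Mir138-1 at a distance of 0.194, with 21.7 CPM in library 1 and 60.4 CPM in library 2, followed at 0.662 by Mir30c-1 and at 0.678 by the epithelial gene Mir205. Mir138-1 shares 24 bases with Mir138-2, and Mir30c-1 shares 28 with Mir30c-2, so both levels are uncertain. Few genes thus had both the level and the difference of Mir449a.

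The mir-34 genes had closer neighbours. Nearest to Mir34c was the muscle gene Mir133b at 0.0318, with 79.7 CPM in library 1 and 86.0 CPM in library 2, and then Mir669o at 0.0764 and Mir3102 at 0.0928. Nearest to Mir34a were Mirlet7c-1 at 0.111, Mir1981 at 0.112 and Mir339 at 0.130. Mir34b was nearest to Mir201 at 0.0921, Mir6994 at 0.233 and Mir6900 at 0.251, all with 19 or fewer counts per library. Mir133b, Mir669o and Mirlet7c-1 each have 21 bases or more in common with a further counted gene, so their levels are uncertain.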

How the data were processed

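Small RNA (below 30 bases, per the labels) was measured in 2 libraries of 1 group. The authors deposited raw counts per gene against mm10 and GENCODE M21, per the deposited text notes. Which aligner and counter they used is not given in the sources used here. Own-strand counts were used. The 4 rows that name no gene held 46.6% of reads in library 1 and 48.9% in library 2 and were left out. All 2202 identifiers matched M21, and hairpin positions equalled RefSeq's on GRCm38.p6 for 5 of 5 matched members. Totals were scaled by TMM on the 335 detected genes (edgeR 4.0.16, R 4.3.3). Other computations used Python 3.11.15, scipy 1.17.1 and pandas 2.3.3. The counting test was run on simulated counts that varied by counting error alone. That simulation could not show how the test behaves with variation between animals or libraries. Depth allows 0.539 and 0.692 CPM at a count of 0. Without molecular identifiers, reads do not stand for independent molecules, and p-values set a difference between these libraries against counting error only.

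All members were named, with the 3 highest genes of the epithelial and p53-linked lists, genes sharing the 5p seed and the 3 genes nearest to each member with 10 counts or more. Members and lists were chosen with earlier results of these data known. Alternatives were other strand, scaling (edgeR, DESeq2 1.42.0, totals), detection, pseudocounts and denominators.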

Additional observations from a re-analysis of the deposited data

How the results depend on the processing

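The call of Mir449a and its direction held under all 6 alternatives of scaling, strand and detection, with log2 ratios of 1.41 or above and adjusted p from 2.04e-24 to 1.46e-21 in the exact counting test. Mir34a, Mir34c and Mir34b were not called under any in which they were tested, and Mir34b was left out at 10 CPM. With TMM factors from all counted genes, an alternative added after seeing the data, the log2 ratios of Mir34c and Mir34b changed sign to -0.0073 and -0.031, and the 191 calls over all genes split into 74 higher and 117 lower, against 96 and 90. With multimapping reads in the denominator the family held 0.0148% of reads. With strand ignored the mean levels of Mir34a, Mir34c and Mir34b were 141, 93.1 and 3.47 CPM, against 124, 81.8 and 2.94 CPM. The counts of Mir34a and Mir34c were unchanged, and Mir34b had 14 counts in library 2 against 13. Total gene counts were lower with strand ignored, at 4868965 in library 1 and 3823162 in library 2. Pseudocounts of 0.1, 0.5 and 5 CPM gave Mir449a log2 ratios of 1.48, 1.46 and 1.31. Detection at 1 count in either library gave 740 genes, and 4 members as before, while detection at 10 CPM gave 254 genes and 3 members, without Mir34b. Single libraries gave family shares of 0.0223% and 0.0285%. Depth limits Mir34b, Mir449b and Mir449c most. No paired analysis was possible because there is 1 group.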

Other observations

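On the strand opposite to the members, 1 read was listed for Mir449b in library 1 and 1 for Mir34b in library 2, both under the limit of 3 counts, and the other 4 members had 0 in both libraries. The single read of Mir449b is the only one that gene received in either library.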
